A study of Mus musculus with 6 samples.

Results

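Activator protein 1 (AP-1) is not 1 protein but a family of transcription factor dimers, built from Fos and Jun proteins that pair through a leucine zipper and bind DNA through the adjoining basic region. Jun proteins can pair with each other or with a Fos protein, whereas Fos proteins need a Jun partner. Fos and several of its relatives are immediate-early genes: their mRNA is made within minutes of a signal such as a growth factor, through MAP kinases acting on factors already present in the cell, and it is short lived. Insulin-like growth factor 1 (IGF1) signals through a receptor tyrosine kinase that feeds into this route.

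The 8 genes described here are the Fos genes Fos, Fosb, Fosl1 and Fosl2, the Jun genes Jun, Junb and Jund, and Atf3, a related factor of the ATF family that pairs with Jun proteins. They were chosen by name, with their values in these lungs known, and were read at every probe set that the array annotation assigns to that gene alone. All 8 of the 8 genes had such a probe set, out of 12393 genes on the array, and they had 10 probe sets out of 22626 mouse probe sets. Jun and Fosl1 had 2 probe sets each. Because the contrast between genotypes chose these genes, their differences are given below as a description. How many of them pass the threshold used for all genes is stated once, beside the share of all probe sets that pass it, and is no test of the family.

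Lungs of Igf1-/- embryos, homozygous mutants that lack IGF1 in every tissue, were compared with lungs of Igf1+/+ embryos, the normal wild type controls, at embryonic day 18.5, shortly before birth. There were 3 arrays for each genotype. Both genotypes came from matings of heterozygous parents on the C57BL/6J background, neither received a treatment, and the mutant allele is recognised in the study's methods by a neomycin resistance sequence. Pups of this stage were delivered by C-section and helped to breathe for a set period under a warming lamp before the lungs were taken. The study describes normal breathing in that period for the wild type embryos, so breathing and genotype cannot be told apart in these arrays. The labels describe replicates of each genotype but also pooled lungs, whereas the methods describe separate RNA samples, so p-values measure the spread between these RNA samples only. Signals had been summarised by RMA as log2 values, on which a difference of 1 is a 2-fold change in signal, and values of different probe sets are not compared with each other.

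The 6 arrays were much alike, with medians from 6.85 to 6.89 and correlations between arrays from 0.992 to 0.996. The surfactant protein gene Sftpc, a defining marker of the distal lung, lay between 14.37 and 14.47 on every array, close to the highest value measured (14.6), where a difference could be hidden. Of the other surfactant genes, Sftpb had a difference of 0.30 with overlapping genotypes and Sftpd one of -0.42 without overlap, and neither passed the adjusted threshold. Igf1 itself checked the labels little, because the genotypes overlapped at 2 of its 3 probe sets, and at the brightest one the values were 8.87, 8.99 and 9.38 in the mutants and 9.28, 9.85 and 9.65 in the controls. In heart muscle genes 1 array stood apart. On replicate 3 of Igf1-/-, Nppa, an atrial hormone gene, was at 7.29 against 4.21 to 4.44 on the other 5 arrays. The mean level of the 6 heart muscle markers was 10.2 there, against 8.46 to 8.69 in the controls. A different array, replicate 3 of Igf1+/+, had the lowest array quality weight, 0.513, where replicate 3 of Igf1-/- had 1.25. Without replicate 3 of Igf1+/+, the probe sets with an adjusted p under 0.10 by limma rose from 126 to 710. Y-linked signal was seen on 1 of 3 arrays of each genotype. Some counts and differences below are also given with 1 array left out, and the count of called family probe sets with the Y-linked signal as a block. In whole lung RNA, fewer cells of a type and less RNA per cell cannot be told apart.

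The promoters of the family are shown first because all of these genes are controlled by signals that arrive at their upstream sequence. RefSeq windows from 250 bases before to 50 bases after a transcript start were at hand for 7 of the 8 genes, in the GRCm38.p6 build; Fosl1 is named only. Jund is shown as a window in which none of the motifs searched was found. Each line but that of Fosb gives the 120 bases before the start, 5′ to 3′ on the strand of the gene. Capitals mark TGACG, the first 5 letters of the cAMP response element, on either strand, or, in Jun, TGACATCA, the letters of the AP-1-like site long known in that promoter. For Fosb, 30 bases around the match are shown, 73 to 44 bases before the start used by the table, which lie inside the annotated gene.

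Fos: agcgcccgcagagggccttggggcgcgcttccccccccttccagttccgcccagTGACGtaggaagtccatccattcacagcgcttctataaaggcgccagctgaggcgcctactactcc
Fosb: atggagttgcgggTGACGcaagcgcggggg
Junb: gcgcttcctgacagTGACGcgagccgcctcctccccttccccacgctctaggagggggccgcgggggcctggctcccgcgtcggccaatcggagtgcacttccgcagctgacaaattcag
Atf3: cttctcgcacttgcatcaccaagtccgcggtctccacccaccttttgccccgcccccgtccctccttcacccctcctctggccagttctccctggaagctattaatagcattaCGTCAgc
Jun: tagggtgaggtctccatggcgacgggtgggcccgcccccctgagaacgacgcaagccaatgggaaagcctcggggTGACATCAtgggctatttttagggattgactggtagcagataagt
Fosl2: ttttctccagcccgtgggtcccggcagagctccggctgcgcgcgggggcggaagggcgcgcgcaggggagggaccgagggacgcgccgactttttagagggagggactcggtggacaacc
Jund: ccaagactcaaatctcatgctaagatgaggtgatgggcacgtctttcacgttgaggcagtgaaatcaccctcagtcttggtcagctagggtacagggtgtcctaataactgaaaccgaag

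The Fos sequence lies at chr12:85473770-85473889 on the plus strand, that of Fosb at chr7:19310089-19310118 on the minus strand, and that of Junb at chr8:84978749-84978868 on the minus strand. The Atf3 sequence lies at chr1:191183334-191183453 on the minus strand, and that of Jun at chr4:95052223-95052342 on the minus strand. The Fosl2 sequence lies at chr5:32136352-32136471 and that of Jund at chr8:70697619-70697738, both on the plus strand. TGACG occurred in the windows of Fos, Fosb, Junb and Atf3, 4 of the 7, and in 20.8% of all 32851 windows. These letters lie inside the full element TGACGTCA, which none of the 7 windows held and 1.79% of all windows did. Fos had TGACG at 66 to 62 and at 129 to 125 bases before the start. TGACATCA was searched after the sequences had been seen, and it was found in Jun alone among the 7 and in 3.62% of all windows. The AP-1 site TGAGTCA was in none of the 7 windows and in 5.20% of all windows. The GC box GGGCGG was in 5 of the 7 and in 35.7% of all windows, and TATAAA was in 2, Fos and Junb, and in 13.6% of all. In Fos TATAAA lay 33 to 28 bases before the start, whereas in Junb it began at the start itself, after the bases shown. No window of the 7 held a CArG box, the site of serum response factor, against 1.63% of all windows, and the serum response element known in Fos lies upstream of the window searched. Both strands were searched for each motif, and a match is a description of the letters only.

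Across the family, 6 of the 8 genes had lower values on all 3 mutant arrays than on any control array: Fos, Fosb, Jun, Junb, Jund and Atf3. These genes account for 7 of the 10 probe sets, and 7.26% of all mouse probe sets were lower without overlap. The genotypes overlapped at Fosl2 and at both Fosl1 probe sets. With limma, a linear model with moderated variances, 5 of the 10 probe sets (Fos, Jun at both, Junb and Atf3) had an adjusted p under 0.10 on the lower side, against 0.393% of all mouse probe sets, and none was called on the higher side, against 0.164% (0.557% in either direction). The contrast chose the genes, so nothing is read from these shares. The median difference over the 10 probe sets was -0.73, and that over all mouse probe sets was 0.03. Without replicate 3 of Igf1-/-, the array with high heart muscle markers, 3 probe sets were called (Fos and both of Jun), and the count was also 3 without replicate 1 or replicate 2 of that genotype. With the Y-linked signal as a block it was 6.

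**Figure D1:**
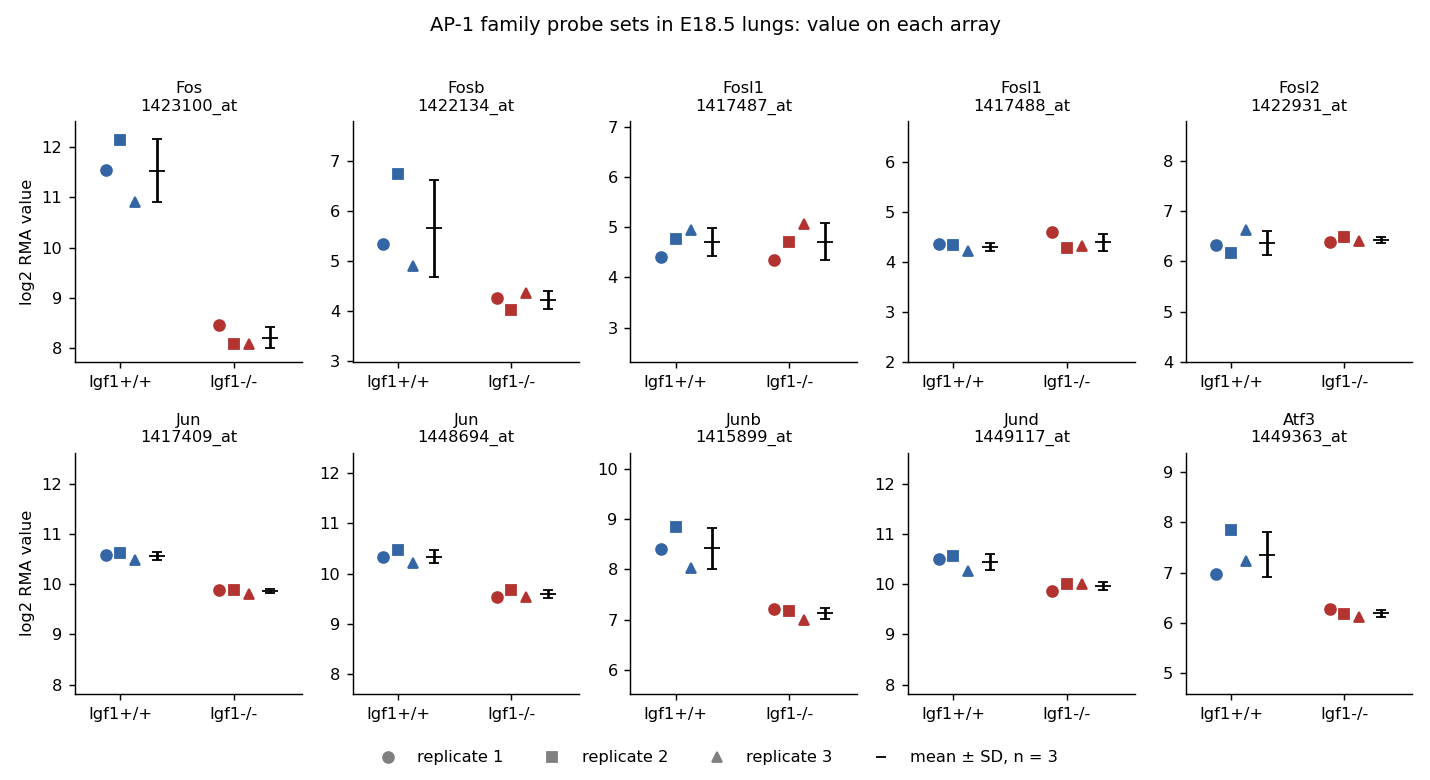
Log2 RMA value of each AP-1 family probe set on each array; symbols are replicates 1 to 3, blue Igf1+/+ and red Igf1-/-, the black bars are mean ± SD (n = 3), and every panel spans the same length of the log2 scale around its own values. The mutant arrays lie below every control array for Fos, Fosb, Jun, Junb, Jund and Atf3, and the genotypes overlap for Fosl1 and Fosl2.

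Fos encodes the founding Fos protein and has the annotated position chr12:85473890-85477274. Its value was 8.46, 8.08 and 8.09 in the mutants and 11.54, 12.15 and 10.90 in the controls. The difference was -3.32 with an SE of 0.265, so the signal was 9.98-fold lower in the mutants, and no other of the 22626 mouse probe sets had a more negative difference. The highest mutant array and the lowest control array were 2.44 apart, more than the whole range within either genotype. That range was 1.25 among the controls and 0.387 among the mutants.

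Fosb encodes a close relative of Fos that also activates transcription and lies at chr7:19302696-19310118. Its value was 4.26, 4.03 and 4.37 in the mutants and 5.33, 6.73 and 4.89 in the controls. The difference was -1.43 with an SE of 0.384, or 2.69-fold lower. Fosb was dim, with means of 4.22 in the mutants and 5.65 in the controls where the median over all probe sets was 6.88, and it was the most variable member among the controls, with an SD of 0.958 against 0.173 in the mutants. Without replicate 3 of Igf1+/+, its lowest control array, the difference was -1.80, and without replicate 2 of Igf1+/+, its highest array, it was -0.89.

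The 2 remaining Fos genes encode Fra-1 and Fra-2, which lack the strong activation domain of Fos and are known as later and longer lasting members of the response. Fosl1 read 4.34, 4.71 and 5.07 in the mutants and 4.40, 4.76 and 4.94 in the controls at 1417487_at, a difference of 0.00 with an SE of 0.189. At 1417488_at it read 4.59, 4.27 and 4.32 in the mutants and 4.36, 4.34 and 4.21 in the controls, a difference of 0.09 with an SE of 0.10. Both Fosl1 probe sets were dim, with means at the 21.5 and 15.5 percentiles of all probe sets, so a change in Fosl1 could have gone unseen. Fosl2 was brighter and read 6.39, 6.49 and 6.40 in the mutants and 6.33, 6.16 and 6.62 in the controls. Its difference was 0.06 with an SE of 0.115, and its mutant arrays all lay within the range of the controls. The Fos genes were thus split, with Fos and Fosb lower without overlap and Fosl1 and Fosl2 overlapping.

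Jun, at chr4:95049036-95052222, encodes the Jun protein with the strongest activation among the Jun members. At 1417409_at its value was 9.88, 9.88 and 9.81 in the mutants and 10.59, 10.62 and 10.48 in the controls, a difference of -0.70 with an SE of 0.075. At 1448694_at it was 9.54, 9.68 and 9.54 in the mutants and 10.33, 10.47 and 10.21 in the controls, a difference of -0.75 with an SE of 0.090. The probe sets of Jun therefore gave nearly the same answer, 1.63-fold and 1.68-fold lower. Both were highest on replicate 2 and lowest on replicate 3 of the controls, while among the mutants replicate 1 was marginally the highest at 1417409_at and replicate 2 the highest at 1448694_at. Jun had a smaller difference than Fos but much tighter arrays, with SDs of 0.042 in the mutants and 0.075 in the controls at 1417409_at.

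Junb, at chr8:84976909-84978748, encodes a weaker activator that can restrain Jun. Its value was 7.21, 7.17 and 7.0 in the mutants and 8.40, 8.84 and 8.02 in the controls. The difference was -1.30 with an SE of 0.179, or 2.46-fold lower, the largest among the Jun genes. When any 1 array was left out, the difference stayed between -1.50 and -1.08.

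Jund, at chr8:70697739-70700616, encodes the Jun protein best known for steady expression in unstimulated cells. Its value was 9.87, 10.01 and 10.01 in the mutants and 10.50, 10.56 and 10.27 in the controls. The difference was -0.48 with an SE of 0.095, or 1.39-fold lower. This was the smallest difference among the members whose genotypes did not overlap, and the nearest arrays of the genotypes were 0.257 apart. The difference stayed between -0.56 and -0.42 when any 1 array was left out.

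Atf3, at chr1:191170296-191183333, encodes a factor induced by many kinds of cell stress. Its value was 6.27, 6.17 and 6.12 in the mutants and 6.98, 7.85 and 7.23 in the controls. The difference was -1.17 with an SE of 0.188, or 2.24-fold lower. The mutant arrays lay within 0.153 of each other, whereas the controls spread over 0.864. The difference lay between -1.35 and -0.92 when any 1 array was left out.

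**Figure D2:**
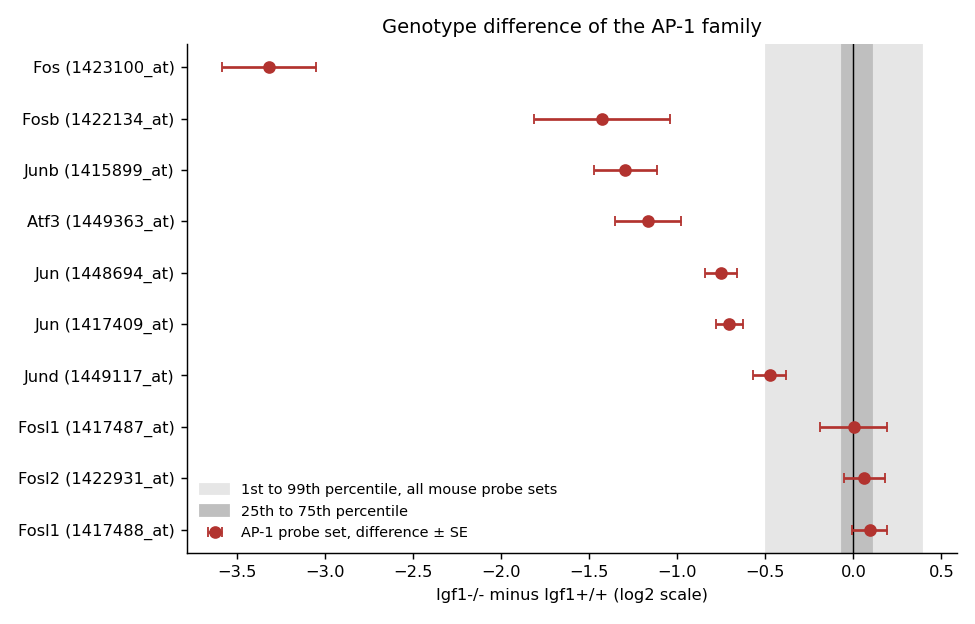
Difference between genotypes (Igf1-/- minus Igf1+/+, log2 scale) of each AP-1 family probe set, with the moderated SE from limma (n = 3 arrays per genotype), against bands that hold the middle of the differences of all 22626 mouse probe sets. Fos is at -3.32, and Fosb, Junb, Atf3 and both Jun probe sets lie outside the 1st to 99th percentile band (-0.50 to 0.39), as Jund, Fosl1 and Fosl2 do not.

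The members also differed in how much they varied within a genotype. The SD was larger among the controls than among the mutants at all 7 probe sets without overlap and at 8 of the 10, whereas 55.1% of all mouse probe sets had the larger SD in the controls. The median SD of the 10 was 0.254 in the controls and 0.096 in the mutants, and for all mouse probe sets it was 0.105 and 0.095. The same control arrays were high and low in most of these genes. At all 7 probe sets replicate 2 was the highest control, which held for 27.6% of all probe sets, and at 6 of them replicate 3 was the lowest, which held for 32.5%. The exception was Atf3, lowest in replicate 1. The full order of replicates 2, 1 and 3 from high to low was found at 6 of the 7, at 6 of the 10 and at 14.5% of all probe sets. The mutants had no such common order: replicate 1 was the highest at 4 of the 7, replicate 2 at 2 and replicate 3 at 1. The 7 probe sets were picked by the genotype contrast, share the same arrays and include Jun at 2 probe sets. They are therefore not independent, and nothing is read from these shares. Fosb lay between 4.03 and 4.37 in the mutants, a dim range in which spread could be hidden.

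**Figure D3:**
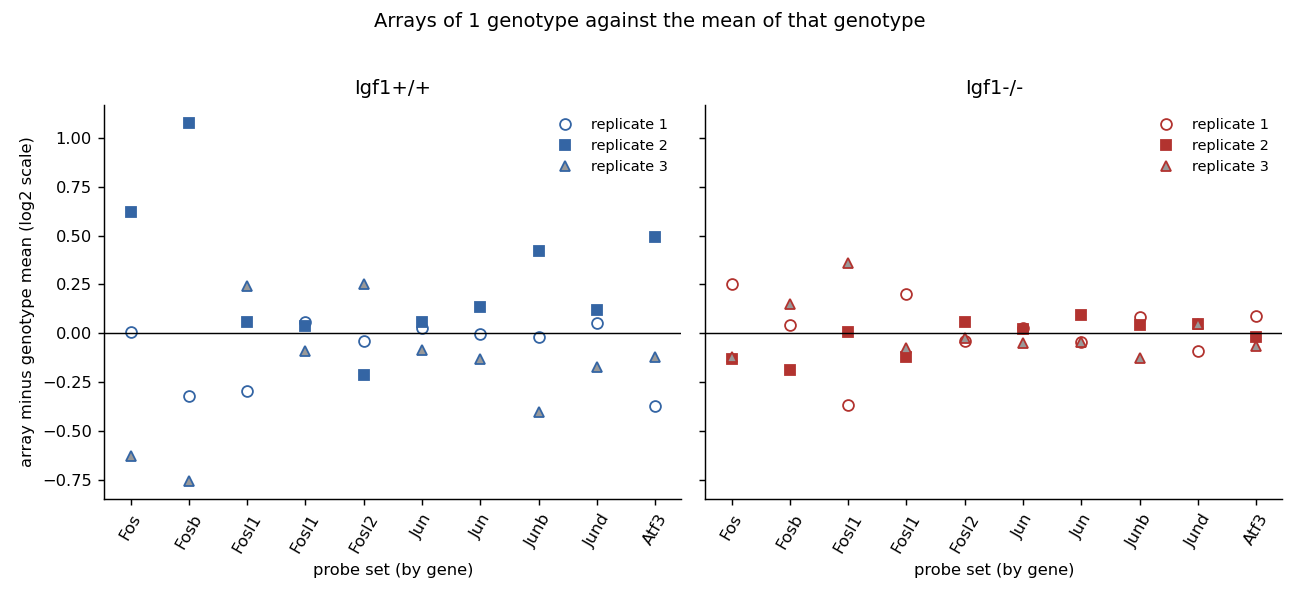
Value of each array minus the mean of its genotype (log2 scale) for the 10 AP-1 family probe sets, with the Igf1+/+ arrays on the left and the Igf1-/- arrays on the right. In the controls replicate 2 is highest for Fos, Fosb, Jun, Junb, Jund and Atf3, and the mutant points of these genes lie closer to 0.

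Over the 6 arrays, the members without overlap followed Fos closely, as a description in which the genotype difference carries most of the likeness. Pearson's r with Fos was 0.992 and 0.985 for the Jun probe sets, 0.988 for Junb, 0.955 for Jund, 0.953 for Atf3 and 0.890 for Fosb (6 arrays each). It was -0.10 and -0.25 for the Fosl1 probe sets and -0.42 for Fosl2. Outside the family, 329 probe sets of 1 gene varied by at least 1 over the arrays, and the 5 genes most like Fos among them were Btg2 (at a probe set dimmer than its brightest) with r of 0.995, Scgb3a1 with 0.990, Zfp36 with 0.986, Nr4a1 with 0.985 and Dusp1 with 0.983. Btg2 encodes an antiproliferative protein, Scgb3a1 an airway secretoglobin, Zfp36 a protein that speeds the decay of AU-rich mRNAs, Nr4a1 an orphan nuclear receptor and Dusp1 a phosphatase of MAP kinases. All but Scgb3a1 are known as rapidly induced genes. Scgb3a1 read 7.88, 7.74 and 7.95 in the mutants and 9.36, 9.56 and 8.83 in the controls, a difference of -1.40 with an SE of 0.166.

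**Figure D4:**
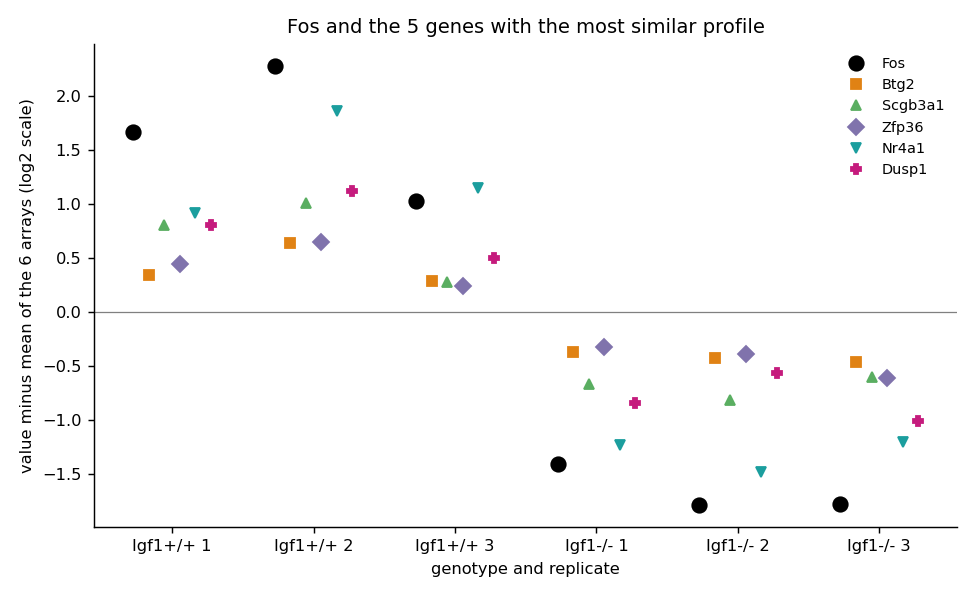
Value on each array minus the mean of the 6 arrays (log2 scale) for Fos and for the 5 genes whose profile was most like it, with 1 point per array and gene. Each gene is above 0 on the 3 Igf1+/+ arrays and below 0 on the 3 Igf1-/- arrays, and each is highest on replicate 2 of Igf1+/+.

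The other genes around AP-1 were read from lists chosen with earlier results of these data known, with 1 probe set per gene, the brightest. Genes picked out below for an unadjusted p, and the markers Nppa, Mpo, Hba-a1, Epb42 and Sftpd, were named after their values were seen. Over the 12393 genes, 0.452% were called lower and 0.145% higher at an adjusted p under 0.10 by limma. The bZIP factors that pair with AP-1 proteins or resemble them, such as the Batf, Maf and Creb proteins, held none called of 20 measured, with 12 higher, 8 lower and a median difference of 0.02. At an unadjusted p under 0.05 there was 1, Atf4, with a difference of 0.20, against 12.7% of all genes in either direction. The brightest were Cebpd, at 10.35, 10.68 and 10.44 in the mutants and 10.68, 10.91 and 10.46 in the controls, and Cebpb, with a difference of -0.17 and an SE of 0.083. Jdp2, a partner that represses AP-1 and was named after its values were seen, had a difference of -0.15.

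Kinases and factors upstream of the AP-1 genes also gave none called of 20, with 15 lower, 5 higher and a median difference of -0.05. At an unadjusted p under 0.05 there were 3, all lower, where 5.66% of all genes were lower. They were Srf, which binds the serum response element, with a difference of -0.23, its partner Elk3 with -0.25, and the MAP kinase kinase Map2k1 with -0.22. The brightest members, Mef2a and Stat3, had differences of 0.02 and -0.08 and overlapping genotypes. These are mRNA levels, and the activity of these proteins is set largely by phosphorylation, which the arrays do not measure.

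Of 12 genes that control the turnover of AP-1 mRNA and protein, 1 was called, Zfp36, which was lower. It read 9.09, 9.03 and 8.80 in the mutants and 9.86, 10.07 and 9.66 in the controls, a difference of -0.89 with an SE of 0.121 and an adjusted p of 0.0271 by limma. Zfp36 is itself known as an immediate-early gene, and it was not called without replicate 3 of Igf1-/- or without replicate 1 of Igf1+/+. Its relative Zfp36l1 had a difference of -0.17 (SE 0.088), and Ddb1, part of a ubiquitin ligase that degrades Jun, one of 0.03 (SE 0.099). The median over the 12 was -0.03.

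The textbook target genes of AP-1 did not share one direction. Of 22 measured, 14 were higher and 8 lower, with a median difference of 0.05, and 1 was called, the adhesion molecule gene Icam1, which was lower. Icam1 read 9.85, 9.75 and 9.58 in the mutants and 10.35, 10.22 and 10.23 in the controls, a difference of -0.54 with an SE of 0.091 and an adjusted p of 0.0665 by limma. It kept that call only without replicate 3 of Igf1+/+ among the fits that left out 1 array. At an unadjusted p under 0.05 there were 6 lower and 2 higher, where 5.66% of all genes were lower and 7.04% higher. The brightest members were Vim, the intermediate filament of mesenchyme, with a difference of -0.07, and Gja1, a gap junction protein, with -0.35, and neither was called. The collagenase gene Mmp13 lay between 3.46 and 3.65 on all 6 arrays, near the lowest values of the array, and was named after its values were seen. Mmp13, Mmp3, Mmp10, Mmp12, Il6 and Ccl2, all on the higher side, had means below 4.93, the 25th percentile of all probe sets. On the lower side this held for Ptgs2 only, so the split of 14 and 8 rests partly on dim probe sets.

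The immediate-early companions, genes known to be induced together with Fos, held 10 called of 26, all lower, or 38.5% against the 0.452% of all genes given above. The median difference was -0.45, and 14 of the 26 were lower without overlap, as were 6.84% of all genes. The list was chosen with earlier results of these data known, and the study itself names several of these genes as repressed. Nothing is therefore read from these shares. Nr4a1 read 8.02, 7.77 and 8.04 in the mutants and 10.17, 11.11 and 10.40 in the controls, 6.13-fold lower with an adjusted p of 0.00179 by limma. Egr1, a zinc finger factor, read 7.73, 8.03 and 8.24 in the mutants and 10.35, 10.99 and 9.83 in the controls, 5.24-fold lower. Ccn1, a matricellular protein gene, read 8.77, 8.89 and 9.06 in the mutants and 11.28, 11.44 and 11.29 in the controls, 5.40-fold lower, with an adjusted p of 2.604e-05 by limma. Ccn1 did not share the wide control spread of Fos. Dusp1 read 9.58, 9.86 and 9.41 in the mutants and 11.23, 11.54 and 10.92 in the controls, 3.06-fold lower. The other 6 called were Ccn2, Ier3, Btg2, Nfkbiz, Ier2 and Klf6, with differences from -1.0 to -0.59.

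Not every companion was lower, as not every Fos gene was. Of the 26, 5 were higher, 1 of them without overlap, as were 11.9% of all genes. That was Egr3, named after its values were seen, with a difference of 0.175. It read 6.67, 6.65 and 6.59 in the mutants and 6.47, 6.46 and 6.45 in the controls. The genotypes overlapped at Egr2, Nr4a2, Nr4a3, Myc and Arc, which were named after their values were seen, with differences of 0.06, -0.11, 0.18, -0.05 and -0.03. Egr2 was dim, between 4.22 and 4.50 on all arrays. Among the 10 companions called, replicate 2 was the highest control in 7 and replicate 3 the lowest in 5, and the SD was larger in the controls in 6. Without replicate 3 of Igf1-/- there were 6 companions called, without replicate 1 of Igf1-/- or replicate 2 of Igf1+/+ there were 5, and without replicate 1 of Igf1+/+ there were 6.

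**Figure D5:**
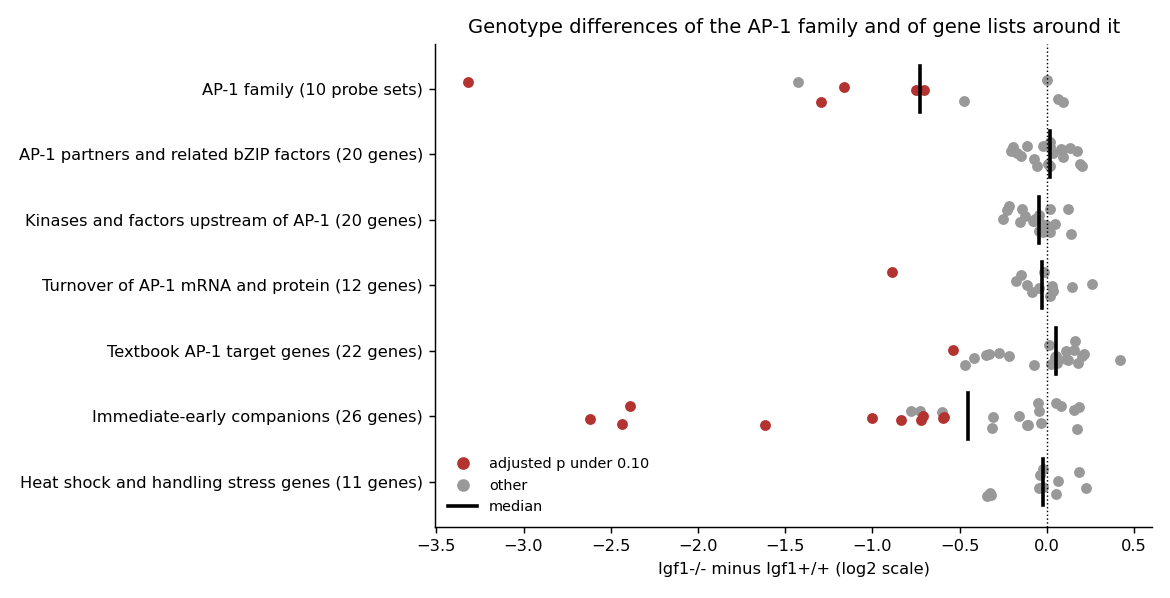
Difference between genotypes (Igf1-/- minus Igf1+/+, log2 scale) of the 10 AP-1 family probe sets and of the genes in 6 lists around them, with called genes in red, others in grey and the median of each list as a black bar. The immediate-early companions reach from -2.62 to 0.18, while the partners and the upstream genes all lie between -0.25 and 0.20.

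Heat shock and chaperone genes, which respond to handling and temperature, gave none called of 11 in the fit to all 6 arrays, with a median difference of -0.02. At an unadjusted p under 0.05 there was 1, Hspb1, with a difference of -0.34, where 5.66% of all genes were lower. Without replicate 3 of Igf1+/+ 3 were called. Hspa8 and Hspa5, the brightest, each had a difference of -0.02 at the brightest probe set of the gene. The study lists Hspa8 among its up-regulated genes, and no other probe set of Hspa8 is given here. Hspa1a and Hspa1b, named after their values were seen, had differences of -0.32 (SE 0.155) and -0.32 (SE 0.143) with overlapping genotypes. Of the 11 genes, 7 were lower and 4 higher. As a measure of RNA integrity, the mean 3′ minus 5′ signal of the beta-actin control probe sets was 0.349 in the mutants and 0.348 in the controls (exact permutation test, two-sided, p = 1.0), and for Gapdh it was 0.069 and 0.10 (exact permutation p = 0.7). With 3 arrays against 3 the smallest possible p is 0.1, so these tests could not have shown a difference.

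Some markers of other cells moved with the genotype beside the AP-1 genes. All 7 neutrophil markers were higher in the mutants without overlap, as were 11.9% of all genes. Their mean level was 7.53 to 7.92 in the mutants and 7.10 to 7.18 in the controls. Among them 1 was called, the antimicrobial peptide gene Camp, with a difference of 0.83, where 0.145% of all genes were called higher. Camp was not called without replicate 3 of Igf1-/-, without replicate 1 of Igf1+/+ or without replicate 2 of Igf1+/+. Mpo, the defining granule enzyme of neutrophils and the dimmest of the 7, read 4.87, 5.09 and 5.21 in the mutants and 4.56, 4.74 and 4.77 in the controls. Of 7 red cell markers 4 were measured, and their mean level was 6.23 to 6.37 in the mutants and 6.83 to 6.93 in the controls. Of these 4, 2 were called lower, where 0.452% of all genes were. They were Slc4a1 with a difference of -1.64 and Alas2 with -0.87. Alas2 was not called without replicate 2 or 3 of Igf1-/- or without replicate 1 or 2 of Igf1+/+. The other 2 red cell markers measured were higher in the mutants, Hba-a1 by 0.12 with overlap and Epb42 by 0.095 without overlap. Both were dim. The haemoglobin gene Hba-a1 lay between 3.77 and 4.13 on all arrays, near the lowest values measured, at its probe set. Epb42 lay between 4.35 and 4.50. The lower mean level of the 4 thus came from Slc4a1 and Alas2. Of the 9 lung markers measured, 1 was called lower, where 0.452% of all genes were: the water channel gene Aqp5, with a difference of -0.98. The mean levels of the 9 overlapped at 10.4 to 10.7 in the mutants and 10.6 to 10.8 in the controls. The part of these cell types in the differences of the AP-1 genes was not tested.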

How the data were processed

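RNA of Igf1-/- and Igf1+/+ lungs was hybridised to 3 Affymetrix 3-prime mouse expression arrays per genotype, and genotype and replicate number were taken from the labels. Whether an array stands for 1 animal or for pooled lungs was not settled. The authors made the deposited log2 values with RMA in Bioconductor over 12 arrays, these 6 and 6 of cochlea, in an unstated version. The normalization therefore also drew on arrays not analysed here. Of 22690 probe sets, 64 controls were left out. The platform annotation gave 1 symbol to 20380 probe sets, several to 691 and none to 1555. The members and gene lists were chosen with earlier results of these data known.

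In R 4.3.3 with limma 3.58.1, genotype was fitted as the only term, with empirical Bayes moderation and Benjamini-Hochberg adjustment over all mouse probe sets, and a call is an adjusted p under 0.10. The SAM method of the study was not run, since its error rate rests on regroupings of the arrays. The code was tested on simulated data. Named genes were all members, up to 4 called genes of each list with the largest difference (where fewer than 2 passed, also the 2 brightest), Igf1, and the 5 genes most like Fos; every other gene in the text was picked with its values in view. Deviations of arrays with the same replicate number correlated at -0.039, -0.228 and -0.137, so the numbers were not taken as pairs. Promoter windows and gene positions are RefSeq's on GRCm38.p6. The number of arrays limits the precision. Alternatives were the replicate block, quantile normalization, median centring, a filter on dim probe sets, a variance trend with robust estimates, array weights, no moderation, other thresholds, the median probe set of a gene and leaving out each array; the Y-linked block was added after the data were examined.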

Additional observations from a re-analysis of the deposited data

How the results depend on the processing

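The count of AP-1 family probe sets called lower, 5 of 10, was 5 with the replicate number as a block, with quantile normalization and with median centring, and 0 without moderation, where 1 probe set was called in all. It ranged from 3 to 7 when 1 array was left out. The median difference over the family then lay between -0.78 and -0.68. Array weights gave 7, and an adjusted p under 0.05 gave 4. Leaving out replicate 3 of Igf1+/+ raised the calls over all probe sets from 126 to 710, and array weights to 628; the cause was not tested.

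Genes called in the lists changed more. Without moderation 0 were called among the turnover genes, the targets and the companions. Array weights gave 2 turnover genes and 1 heat shock gene, and an adjusted p under 0.05 gave 0 targets and 5 companions, while one under 0.20 gave 1 heat shock gene. With 1 array left out, counts ran from 0 to 1 for turnover and for targets, from 5 to 14 for companions, from 0 to 3 for heat shock, and stayed at 0 for partners and upstream genes. The replicate block gave 12 companions against 10.

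Of 135 values of single family probe sets under alternatives, 110 kept direction and call, 12 lost the call, 7 gained it and 6 turned, all of these at Fosl1 or Fosl2. Under quantile normalization Fosl1 at 1417487_at was -0.048. With 1 array left out, Fosl1 ran from -0.178 to 0.187 at that probe set and from -0.007 to 0.154 at 1417488_at, Fosl2 from -0.043 to 0.188, Mef2a from -0.037 to 0.082, Stat3 from -0.203 to 0.059, Ddb1 from -0.023 to 0.137, Hspa8 from -0.134 to 0.087, Hspa5 from -0.09 to 0.059, Pecam1 from -0.058 to 0.18 and Actc1 from -0.01 to 0.60.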

Other observations

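Lists of other cell types were measured beside the AP-1 genes. Over all genes, 5.66% were lower and 7.04% higher at an unadjusted p under 0.05 by limma. Of 6 endothelial markers none was called, and 2 were lower at an unadjusted p under 0.05 by limma, with a median difference of -0.13. The brightest, Cldn5, a tight junction gene, had a difference of -0.18, and Pecam1 one of 0.04. Of 4 T cell markers none was called, and 3 were higher at an unadjusted p under 0.05, with a median of 0.23. Cd3e, a chain of the T cell receptor complex, read 6.76, 6.72 and 6.69 in the mutants and 6.27, 6.38 and 6.61 in the controls. Of 5 smooth muscle markers none was called and 1 was lower at an unadjusted p under 0.05, with a median of -0.16, and Acta2 and Tagln had differences of -0.16 and -0.17. Of 6 heart muscle markers none was called at either level, and all 6 were highest on replicate 3 of Igf1-/-, among them Myl7, an atrial myosin light chain gene, at 11.82 against 10.29 to 10.67 on the other 5 arrays.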
